A study of Neurospora crassa with 6 samples.

Results

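The comparison described here is calcium withdrawal without drug in the filamentous fungus Neurospora crassa: the poly(A) transcriptome of wild-type germlings in 0 Ca2+ minimal medium, set against that in standard minimal medium, both with the solvent DMSO. The genes were chosen by level alone. Of the 9691 genes in the table, 7079 (73.0%) averaged an FPKM of 1 or more between both libraries and were described, and the other 2612 were not. FPKM is a fragment count scaled by transcript length and by the mapped fragments of the library, so a value depends on everything else that was sequenced with it. Conidia (asexual spores) of the wild type grew for 6 h at 26 °C and 140 rpm in constant light in the medium named, and were then kept for 1 h more with DMSO or with 20 µM staurosporine, a protein kinase inhibitor. Besides the 2 libraries compared, values are given from the DMSO library of medium with 20 mM CaCl2 and from the staurosporine libraries of the same 3 media. The calcium content of the standard medium is not stated in the labels, nor is how the 0 Ca2+ medium was made or whether its other salts were the same.

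Each group has 1 library. No value therefore has a replicate error, no test between the media was run, and a difference named below is a difference between these 2 libraries. A gene was counted as higher or lower where the log2 ratio of FPKM + 1 was at least 1 in size, that is, at least 2 times apart; the added 1 makes the ratio understate the difference of low genes. In a culture extracted whole, fewer cells of a type and less RNA per cell cannot be told apart.

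Calcium enters fungal cells through plasma membrane channels, is removed from the cytosol by P-type ATPases and by vacuolar calcium/proton exchangers, and acts through calmodulin and the phosphatase calcineurin. In budding yeast, calcineurin activates the transcription factor Crz1, which raises genes for calcium pumps and for cell wall synthesis. Neurospora also has well-studied circuits for sulfur, where the bZIP protein CYS-3 turns on permeases and enzymes that collect sulfur, and for phosphate, where NUC-1 turns on permeases and phosphatases.

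The bulk of the transcriptome differed little between the media. The median log2 ratio of all genes was 0.12, with quartiles of -0.10 and 0.34, and 84.3% of genes lay within 1.5 times. Of all genes 64.2% lay above 0, the background for counts above or below 0 given later. In 0 Ca2+ medium 212 genes (2.99%) were at least 2 times higher and 165 (2.33%) at least 2 times lower, and these shares are the background against which each group below is read. Of the called genes, 56.2% were on the higher side; with ratios centred on the median of genes at FPKM 10 or more the split was 162 higher and 189 lower, which is 46.2%. At least 4 times apart were 16 higher and 34 lower genes. Both shares were smaller among well expressed genes: 1.56% higher and 1.56% lower at a mean FPKM of 100 or more, against 3.49% and 2.88% below 10. Higher genes were named more often than lower ones. Of the 212 higher genes 106 (50.0%) had a symbol or an informative product, of the 165 lower genes 44 (26.7%), and of all genes 57.5%.

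At the edges of these rules, NCU03422 had a mean FPKM of 0.999 and stayed out, and NCU06555 had 1.00 and came in. The TFIIE gene NCU03909, at FPKM 2.08 and 5.15, missed the size rule at a log2 ratio of 0.998. So did stk-24, annotated as pyruvate dehydrogenase kinase, at 0.9996. NCU00263, a serine endopeptidase, passed at 1.002. On the lower side gh47-4 missed it at -0.99 and NCU02732 passed at -1.001.

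**Figure D1:**
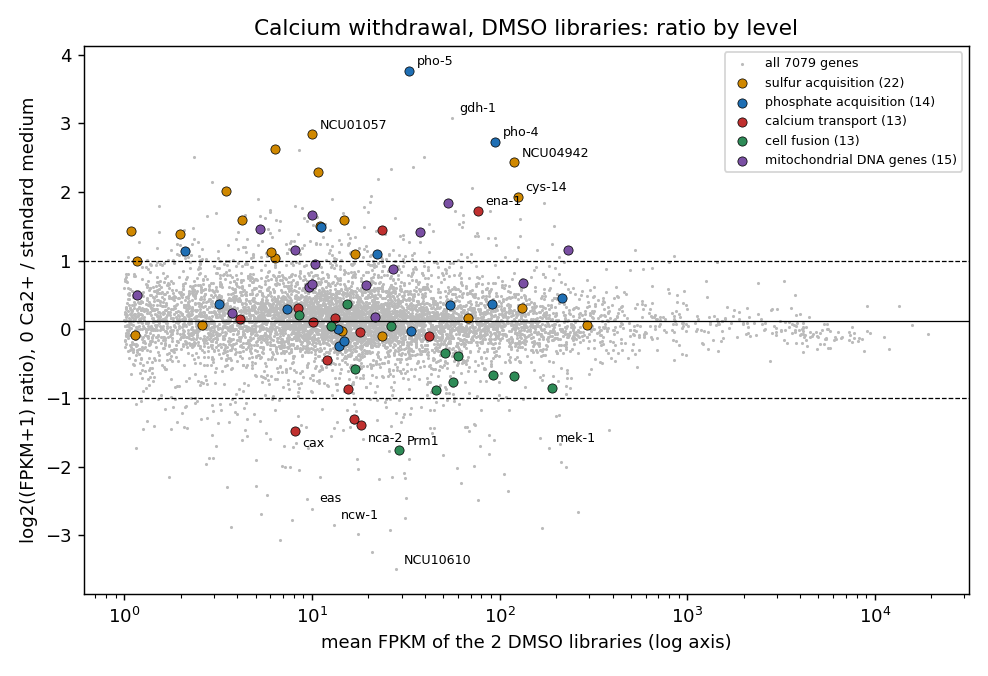
Log2 ratio of FPKM + 1 in 0 Ca2+ over standard medium (DMSO libraries) against mean FPKM on a log axis, 1 point per gene for 7079 genes, with 5 gene lists in colour. Dashed lines mark the size rule of 1 either way and the solid line the all-gene median of 0.12; pho-5 is the highest point at 3.77 and NCU10610 the lowest at -3.50.

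Genes of phosphate acquisition held the largest single difference. The list had 15 genes, of which 14 passed the level filter. In 0 Ca2+ medium 5 were at least 2 times higher and 0 lower, with a median log2 ratio of 0.37. The 5 include nuc-2, added to the list after its value was seen. They also include pho-2, which passed the filter only through its 0 Ca2+ value. At a mean FPKM of at least 10 the count was 4 of 11, nuc-2 among them. The high-affinity phosphate transporter gene pho-5 (NCU08325, of the PHO84 type) read FPKM 3.66 in standard and 62.4 in 0 Ca2+ medium, a log2 ratio of 3.77, and 0.524 in 20 mM CaCl2 medium. The phosphate-repressible permease gene pho-4 (NCU09564) read 24.1 in standard, 166 in 0 Ca2+ and 1.70 in 20 mM medium, with a ratio of 2.73. In the DMSO libraries both permease genes thus stood highest without calcium and lowest with 20 mM CaCl2.

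The remaining members of that list split. The glycerophosphodiester phosphodiesterase gene NCU10038 read FPKM 5.38 in standard and 16.9 in 0 Ca2+ medium, and the repressible alkaline phosphatase gene pho-2 (NCU01376) read 0.925 and 3.26. The fifth, nuc-2 (NCU11426), encodes the regulator that links phosphate supply to the NUC-1 pathway, and read 13.7 and 30.5, a log2 ratio of 1.10; it was added to the list after its value was seen. With a pseudocount of 5, pho-2 (0.48) and nuc-2 (0.92) missed the size rule, which left 3 of the 5. The other transporter genes moved less: NCU08743, also of the PHO84 type, read 181 and 248, and NCU07375, of the major facilitator type, read 79.3 and 102. The repressor gene preg read 34.1 and 33.4. Acid phosphatase gene pho-3 was below the level filter, at 0.314 and 0.291. The higher calls were therefore confined, within this list, to the permease genes pho-4 and pho-5, 1 of 3 phosphodiesterases, pho-2 and nuc-2. In 20 mM medium nuc-2 read 16.9, above its standard value, so it did not share the order of the permease genes.

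Sulfur acquisition had the largest share of higher genes. Of 23 genes in the list, 22 passed the filter, and 15 of them were at least 2 times higher in 0 Ca2+ medium and 0 lower, with a median log2 ratio of 1.26. The share is 15 of 22 against 2.99% of all genes. Of these, ars-1, NCU02196, NCU05888 and NCU07819 passed the filter only through their 0 Ca2+ values, so they could not have been called lower. At a mean FPKM of at least 10 the share was 7 of 12. Among all genes 3.02% were higher at a mean FPKM of 10 to 100 and 1.56% at 100 or more. With a pseudocount of 5 the count was 7: ars-1, NCU02196, NCU05340, NCU05888, NCU07819, NCU09800, NCU10015 and NCU10016 no longer met the size rule, and the list median was 0.68. The list holds uptake systems, enzymes that release sulfur from organic compounds, and regulators.

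Among the uptake genes, cys-14 (NCU04433), the sulfate permease II gene, read FPKM 51.3 in standard, 199 in 0 Ca2+ and 23.4 in 20 mM medium, with a log2 ratio of 1.93 for 0 Ca2+ over standard. A second gene annotated as sulfate permease II, NCU03235, read 6.87, 22.7 and 16.7 in that order of media. The methionine permease gene NCU04942 read 36.6, 202 and 44.6, a ratio of 2.43, and NCU07754, with the same annotation, read 2.99, 18.5 and 6.44, a ratio of 2.29. In each of these 4 uptake genes the 0 Ca2+ library was the highest of the 3 DMSO libraries. Other uptake genes did not differ by the size rule: the sulfate transporter genes NCU02632 and NCU09642 read 24.3 and 22.7, and 14.6 and 14.3, and the methionine permease gene NCU10675 read 2.53 and 2.68.

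Among the enzymes, several genes annotated for the use of taurine and other sulfonates were low in standard medium and higher in 0 Ca2+ medium. The taurine dioxygenase genes NCU01057 and NCU07610 read FPKM 1.70 and 1.06 in standard, 18.4 and 11.7 in 0 Ca2+, and 3.82 and 2.15 in 20 mM medium, with log2 ratios of 2.84 and 2.63. NCU02196, of the same TauD type, read 0.770 in standard and 6.17 in 0 Ca2+ medium. The taurine dioxygenase gene NCU09800 was not low, at 10.4 and 23.4, and NCU06964, also TauD, was below the level filter at 0.0717 and 0.0910. The alkanesulfonate monooxygenase gene NCU05340 read 1.60 and 6.87, and the genes NCU10015 and NCU10016, annotated as a methanesulfonate monooxygenase and a desulfurizing enzyme, read 3.78 and 8.85, and 3.42 and 8.66. The arylsulfatase gene ars-1 (NCU06041), a classic target of CYS-3, read 0.126 and 2.05, both low. Choline sulfatase, NCU08364, read 63.7 and 71.5.

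The regulators of the circuit differed from one another. The F-box gene scon-2 (NCU08563), whose product holds CYS-3 in check and which is itself a target of CYS-3, read FPKM 5.31 in standard, 16.8 in 0 Ca2+ and 9.43 in 20 mM medium. The activator gene cys-3 (NCU03536) read 117, 145 and 162, a log2 ratio of 0.31 for 0 Ca2+ over standard. The gene scon-3, for the SKP1-type partner of SCON-2, read 285, 297 and 323.

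Downstream of uptake, the genes that build sulfate into cysteine and methionine differed less. All 16 genes of that list passed the filter; 2 were at least 2 times higher and 0 lower, and the median log2 ratio was 0.34. The phosphoadenosine phosphosulfate reductase gene NCU02005 read FPKM 26.1 and 58.2, and cys-2, for assimilatory sulfite reductase, read 135 and 281 (1.05, or 0.96 with centred ratios). ATP sulfurylase, cys-11, read 575 and 677. The methionine synthase gene met-8 read 2507 and 4087, a ratio of 0.70 that missed the size rule but gave 1 of the 5 largest FPKM differences on the higher side.

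**Figure D2:**
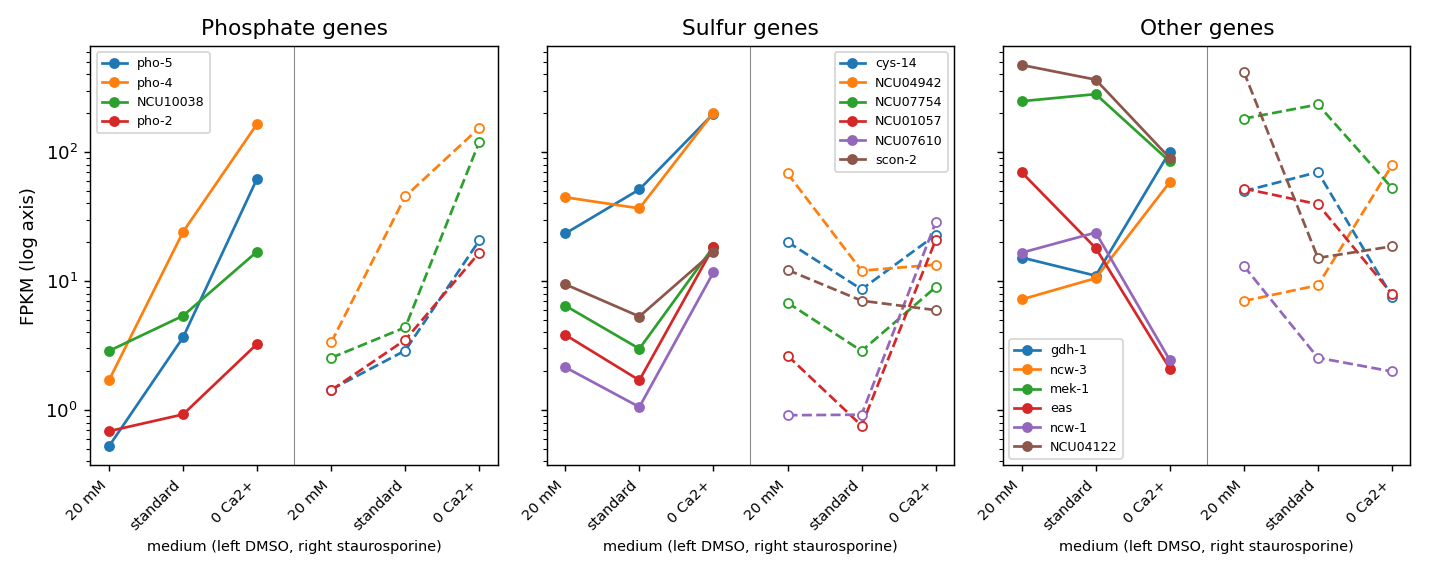
FPKM on a log axis in the 6 libraries for 16 genes named in the text; filled points and solid lines are DMSO libraries, open points and dashed lines staurosporine libraries, 1 library per point, with media ordered 20 mM CaCl2, standard, 0 Ca2+. The phosphate genes climb from left to right with DMSO and with staurosporine, pho-4 from 1.70 to 166 with DMSO, while mek-1, eas and ncw-1 end lowest in 0 Ca2+ medium with DMSO.

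Genes listed under calcium transport by annotation were split between the directions. The list had 14 genes, of which 13 passed the filter; 2 were at least 2 times higher and 3 lower, with a median log2 ratio of -0.05. The calcium/proton exchanger gene cax (NCU07075), whose product loads the vacuole, read FPKM 12.4 in standard, 3.80 in 0 Ca2+ and 25.5 in 20 mM medium, a ratio of -1.48, or -0.98 with a pseudocount of 5. The calcium ATPase gene nca-2 (NCU04736), annotated as a plasma membrane pump, read 26.7, 9.53 and 32.0, a ratio of -1.40. NCU11680, annotated as the Yvc1 channel, which in yeast releases calcium from the vacuole, read 24.3, 9.25 and 11.7, a ratio of -1.30. For cax and nca-2 the order of the 3 DMSO libraries was 0 Ca2+ lowest and 20 mM highest; for NCU11680 the standard library was the highest.

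The 2 higher genes of the list are both annotated as calcium-transporting ATPase 3. One of them, ena-1 (NCU05046), is of the ENA type, which in fungi exports sodium and potassium, and stands also in the list of monovalent cation transport. It read FPKM 35.1 in standard, 119 in 0 Ca2+ and 14.5 in 20 mM medium, a log2 ratio of 1.73. NCU07966, with the same product name as ena-1, read 12.2, 35.1 and 1.18, a ratio of 1.45. That name does not settle which ion its product moves, so neither higher gene can be taken as a calcium pump. Both were highest without calcium and lowest with 20 mM CaCl2, the reverse of cax and nca-2.

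The other calcium transport genes missed the size rule. Of the vacuolar type, NCU07711 read FPKM 20.3 and 10.6, a log2 ratio of -0.87, and the antiporter gene NCU06366 read 14.05 and 10.03. The intracellular pump genes nca-1 (43.5 and 40.5) and pmr-1 (18.3 and 17.7) were close in the media, and nca-3 was below the level filter, at 0.189 and 0.0965. The channel genes for Cch1 (NCU02762, 3.88 and 4.396) and mid-1 (12.4 and 14.1), the calcium permease NCU05360 (7.38 and 9.43) and the sodium/calcium exchanger NCU02826 (9.77 and 10.5) lay between 0.10 and 0.32 on the log2 scale.

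Calcium signalling genes were close in the media. The list had 19 genes, of which 18 passed the filter, with 0 higher and 1 lower and a median log2 ratio of 0.06. The lower gene was NCU02175, a phosphatidylinositol-specific phospholipase C, which read FPKM 4.76 in standard, 1.71 in 0 Ca2+ and 6.34 in 20 mM medium, a ratio of -1.09, or -0.54 with a pseudocount of 5. The other phospholipase C genes, NCU01266 and NCU09135, read 1.06 and 1.99, and 4.13 and 4.70. Calmodulin, cmd, read 859 and 838. The calcineurin genes were NCU03804 for the catalytic subunit (106 and 78.8, a ratio of -0.42) and cnb-1 for the regulatory subunit (170 and 155), and the calcineurin-binding protein gene NCU01504 read 63.7 and 53.6. The kinase genes camk-1 (112 and 105), camk-2 (16.0 and 14.5), camk-3 (3.88 and 4.12) and camk-4 (28.2 and 35.8) stayed between -0.14 and 0.33. The annexin genes NCU02139 and anx14 read 23.6 and 25.0, and 8.67 and 12.5, and the sensor gene cse-1 read 107 and 88.3. Among EF-hand genes, pef-1 read 86.6 and 110, NCU09469 read 20.5 and 23.1, and NCU08691 was below the filter; the further calmodulin-annotated genes NCU00171 and NCU03750 read 19.1 and 19.8, and 4.88 and 6.30.

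**Figure D3:**
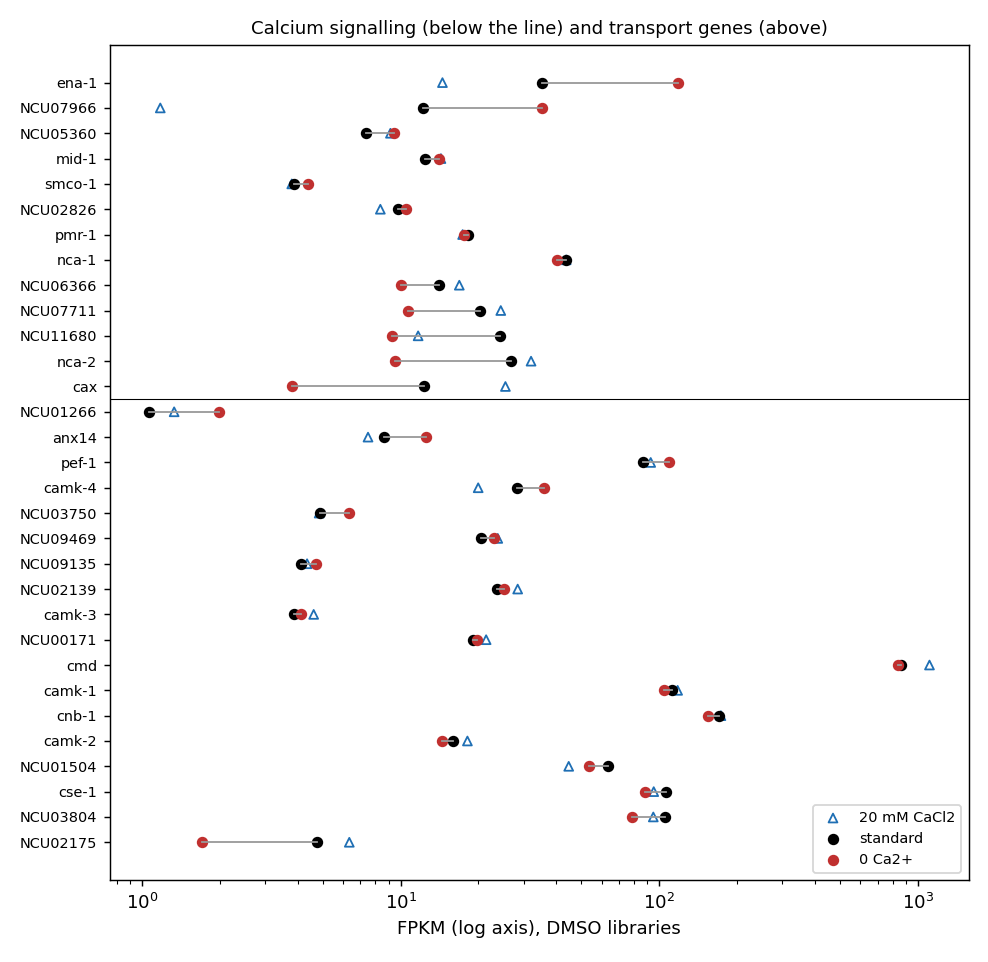
FPKM on a log axis in the DMSO libraries of standard (black), 0 Ca2+ (red) and 20 mM CaCl2 medium (open triangles), 1 library each, for 18 calcium signalling genes below the line and 13 transport genes above it. The long lines are ena-1 and NCU07966 to the right and cax, nca-2, NCU11680 and NCU02175 to the left; most signalling genes have short lines.

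Of the other cation transport genes, the plasma membrane proton pump gene pma-1 read FPKM 969 in standard, 1911 in 0 Ca2+ and 1442 in 20 mM medium, just under the size rule at 0.98. Of the 20 genes of the monovalent list past the filter 1, ena-1, was higher and 0 lower; its subunits of the vacuolar proton pump lay between -0.14 for vma-2 and 0.32 for vma-7. Among 14 genes for zinc, iron, copper and nickel transport 3 were higher and 1 lower. Of the higher genes NCU02879 passed the filter only through its 0 Ca2+ value, so it could not have been called lower. The zinc transporter gene tzn-1 (NCU07621) read 1.59 and 8.69, a ratio of 1.90, and the zinc/iron transporter gene NCU02879 read 0.819 and 4.71, while NCU06380, of the YKE4 type, read 62.6 and 29.4. The siderophore transporter gene NCU06132 read 8.43 in standard, 19.6 in 0 Ca2+ and 18.3 in 20 mM medium, so it stood higher in both altered media. With a pseudocount of 5, tzn-1 alone of these metal genes met the size rule.

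Cell surface genes gave several of the largest differences on the lower side, and some on the higher side. Of 92 genes in the cell wall list 76 passed the filter, with 3 higher and 5 lower and a median log2 ratio of -0.02. The lower genes were ncw-1, for a non-anchored wall protein, at FPKM 23.8 in standard and 2.44 in 0 Ca2+ medium (-2.85); acw-10, for an anchored wall protein, at 187 and 35.6 (-2.36); gh76-5, for an enzyme of the Dfg5 type that attaches proteins to the wall, at 51.8 and 10.8 (-2.16); the 1,3-beta glucanase gene NCU07523 at 44.3 and 9.23 (-2.15); and NCU07338, annotated as the mannosyltransferase Och1, at 43.6 and 17.4. The higher genes were ncw-3 at 10.5 and 58.5 (2.37), NCU00399, annotated as PhiA, at 8.06 and 44.7 (2.33), and ncw-6 at 2.64 and 9.002, which missed the size rule with a pseudocount of 5 (0.87). In the 20 mM library acw-10 read 135, gh76-5 69.7 and NCU07523 46.4, all well above their 0 Ca2+ values.

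The rodlet protein gene eas (NCU08457), which coats conidia and aerial hyphae with a water-repellent layer, read FPKM 18.02 in standard, 2.10 in 0 Ca2+ and 69.7 in 20 mM medium, a log2 ratio of -2.62. It was the 1 lower gene among the 8 conidiation genes past the filter. The 1 higher gene was acon-2, at 1.72 and 5.40, with a log2 ratio of 1.23 that was 0.63 with a pseudocount of 5. Other genes that mark conidiation were near the filter in both libraries: con-6 read 1.70 and 2.47, con-8 0.990 and 1.15, con-10 1.11 and 2.44, fl 0.956 and 1.44, and con-13 was listed at 0.0438 and 0. The sexual-phase genes poi-2 and asd-1 read 0.286 and 1.24, and 1.34 and 1.36, and the pheromone gene ccg-4 read 3.36 and 1.59. These markers were thus low in both libraries. Above them stood hym-1 (11.003 and 13.8) and the FlbC-type gene NCU03184 (18.2 and 32.2), and the clock-controlled gene ccg-1 read 146 and 240.

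The kinase gene mek-1 (NCU06419), for the MAP kinase kinase of the cell wall integrity pathway, read FPKM 281 in standard, 84.5 in 0 Ca2+ and 248 in 20 mM medium, a log2 ratio of -1.72. Its upstream kinase gene mik-1 read 9.23 and 10.5, and the MAP kinase gene of that pathway, mak-1, read 258 and 152, a ratio of -0.76. In the fusion and mating pathway mak-2 read 280 and 179 (-0.64), mek-2 69.0 and 53.0, and nrc-1 5.97 and 7.58; in the osmotic pathway os-2 read 116 and 115. Of the 14 MAP kinase module genes, all past the filter, 0 were higher and mek-1 alone was lower.

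Genes needed for germling fusion, by which young hyphae join into a network, had the lowest median of the 37 lists, -0.58. All 13 passed the filter; 1 was at least 2 times lower and 0 higher, 9 were below 0 and 11 below the all-gene median. The 1 past the size rule was Prm1 (NCU09337), for a membrane protein of the plasma membrane merger, at FPKM 45.7 in standard, 12.8 in 0 Ca2+ and 28.3 in 20 mM medium, a ratio of -1.76. The scaffold gene so read 59.9, 32.1 and 45.4 (-0.88), ham-7, for a wall sensor of the MAK-1 pathway, 244, 135 and 248 (-0.85), and ham-9 71.5, 41.4 and 104 (-0.77). The NADPH oxidase gene nox-1 and its regulator nor-1 read 113 and 71.2, and 57.4 and 45.1. Outside the rule for named genes and chosen after its value was seen, adv-1 (NCU07392), a transcription factor gene needed for fusion and sexual development, read 77.5 and 36.9.

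Among metabolic genes, gdh-1 (NCU00461), for the NAD-specific glutamate dehydrogenase that breaks glutamate down, read FPKM 11.001 in standard, 101 in 0 Ca2+ and 15.2 in 20 mM medium, a log2 ratio of 3.08 and the second highest of all genes. Nitrogen genes otherwise leaned the other way or were close: of 19 past the filter 1, gdh-1, was higher and 2 lower. Those were nit-3, for nitrate reductase, at 31.9 and 12.2 (-1.32), with 70.1 in 20 mM medium, and the urea transporter gene NCU09909 at 4.32 and 1.18 (-1.29, or -0.59 with a pseudocount of 5). The glutamine synthetase gene gln-2 read 144 and 72.2 (-0.98). The biosynthetic, NADP-specific enzyme's gene, am, read 1114 and 859.

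Amino acid synthesis genes stood slightly higher as a group. Of the 40 genes of that list, all past the filter, 1 was at least 2 times higher and 0 lower. Of the 40, 38 lay above 0, against 64.2% of all genes, and 35 above the all-gene median. The median log2 ratio was 0.48. The arginine genes arg-10 and arg-12 read FPKM 149 and 294, and 108 and 204, and lys-5 read 455 and 847. The gene past the rule, ilv-5 by symbol, is annotated in the table as pyruvate decarboxylase and read 9.78 and 22.3; its ratio of 1.11 was 0.88 with a pseudocount of 5. The activator gene of amino acid synthesis, cpc-1, chosen after its value was seen, read 548 in standard, 1156 in 0 Ca2+ and 970 in 20 mM medium, a ratio of 1.07.

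In central carbon metabolism the malate dehydrogenase gene NCU04122 read FPKM 364 in standard, 89.9 in 0 Ca2+ and 473 in 20 mM medium, a log2 ratio of -2.01. The isocitrate lyase gene acu-3, for the first step of the glyoxylate bypass, read 40.9, 138 and 34.8 (1.73); the malate synthase gene acu-9, for the next step, read 68.0 and 95.9 (0.49). Of 18 citric acid cycle genes 0 were higher and 2 lower, the second being tca-17 (by annotation an L-lactate dehydrogenase) at 110 and 48.3. The glucokinase gene NCU02702 read 8.54 and 18.4, a ratio of 1.03 that was 0.79 with a pseudocount of 5 and 0.93 with centred ratios. Catalase-1, cat-1, the 1 higher of 27 oxidative stress genes, read 2.88 and 10.6 (1.58, or 0.98 with a pseudocount of 5).

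Nuclear genes for respiratory complex I, which takes electrons from NADH, were lower by a small amount without exception. Of the 29 genes, all past the filter, 0 met the size rule, and all 29 lay below 0 under the deposited scale, under centring and under rescaling of the libraries, with a median log2 ratio of -0.33. The range ran from -0.77 for nuo21, at FPKM 82.8 and 48.1, to -0.04 for nuo10.5, at 283 and 275. In 20 mM medium these 2 genes read 136 and 364. Summed over the 29 genes FPKM was 3595 in standard, 2879 in 0 Ca2+ and 6433 in 20 mM medium. The 20 genes of complexes III to V had a median of 0.07, with 0 past the size rule; atp-2 read 4610 and 3661.

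Genes of the mitochondrial chromosome were higher. Of 17 IDs 15 passed the filter, 6 were at least 2 times higher and 0 lower, all 15 lay above 0 under each of the scalings just named, and the median log2 ratio was 0.88. With a pseudocount of 5 the count of higher IDs was 4 of 15, and at a mean FPKM of at least 10 it was 4 of 9. NCU16005 read FPKM 22.6 in standard, 83.4 in 0 Ca2+ and 83.9 in 20 mM medium, and NCU16016,NCU16017, an ID that joins 2 loci, read 143, 318 and 402. The summed FPKM of the 15 IDs was 379, 783 and 952 in that order of media, so the standard library was the lowest of the 3. The libraries were made from oligo(dT)-selected RNA, and how completely that step captured mitochondrial transcripts in each was not tested.

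The translation apparatus was close in the 2 media. Of 80 cytosolic ribosomal protein genes, 23 mitochondrial ones and 38 ribosome biogenesis genes 0 met the size rule, with medians of -0.03, 0.04 and -0.16. The 5 largest FPKM differences on the lower side were nevertheless all ribosomal protein genes. The ubiquitin fusion gene ubi::crp-6 read FPKM 13025 and 10652, a log2 ratio of -0.29, and NCU03988, for L18, read 9722 and 7820. The largest absolute differences on the higher side were those of the thiamine genes NCU06110 (11803 and 14958) and nmt-1 (7987 and 10101), both with ratios of 0.34.

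**Figure D4:**
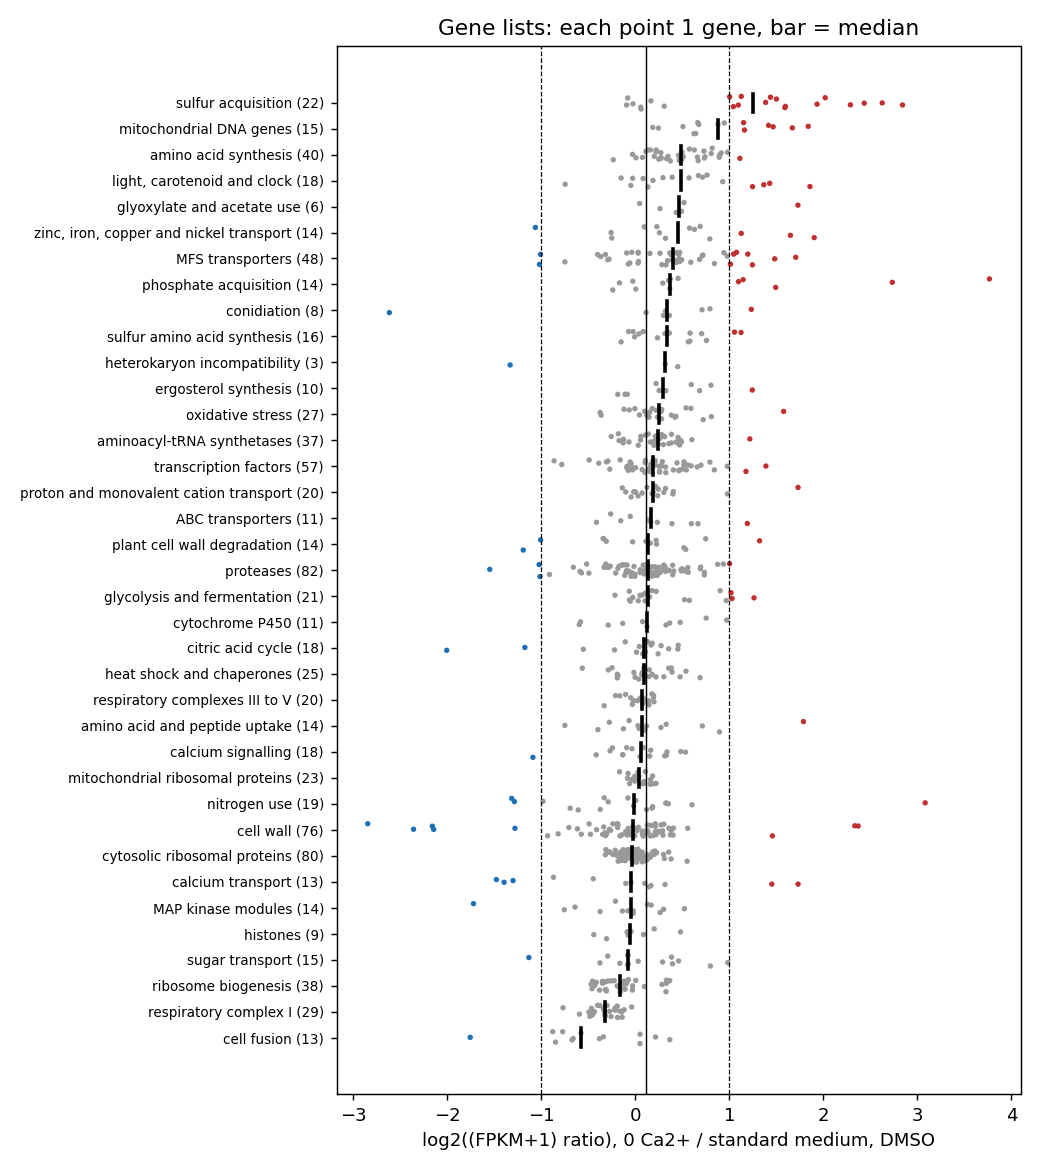
Log2 ratio of FPKM + 1 in 0 Ca2+ over standard medium (DMSO) for each gene of 37 lists past the level filter, with the number of genes in brackets; bars are medians, red and blue points are at least 2 times higher and lower, and the solid line is the all-gene median. Lists run from sulfur acquisition at 1.26 to cell fusion at -0.58.

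Light and clock genes, in cultures kept in constant light, had a median log2 ratio of 0.48 over 18 genes, with 4 higher and 0 lower. The photoreceptor gene wc-1 read FPKM 6.70 and 17.3 (1.25, or 0.93 with a pseudocount of 5), bli-3 read 11.4 and 32.3, ccg-8 16.0 and 42.8, and ccg-14 8.22 and 32.4. The partner gene wc-2 and the clock gene frq read 17.4 and 18.5, and 21.8 and 26.9. The carotenoid genes al-1, al-2 and al-3 read 19.5 and 38.0, 23.8 and 38.4, and 28.1 and 42.2, and 96.0, 115 and 50.0 in 20 mM medium. The alternative oxidase gene aod-1, chosen after its value was seen, read 324 in standard, 726 in 0 Ca2+ and 152 in 20 mM medium.

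Of the remaining lists, 48 major facilitator transporters held 7 higher and 2 lower genes, with NCU05045, of the monocarboxylate type, at FPKM 2.29 and 9.72. The higher genes NCU09678 and NCU01095 (0.757 and 0.901 in standard medium) passed the filter only through their 0 Ca2+ values. The lower gene NCU00306 (0.901 in 0 Ca2+ medium) passed it only through its standard value. Plant cell wall enzymes held 1 higher and 2 lower of 14, proteases 1 and 3 of 82, transcription factors 2 and 0 of 57, ergosterol genes 1 and 0 of 10, aminoacyl-tRNA synthetases 1 and 0 of 37, glycolysis and fermentation genes 3 and 0 of 21, amino acid and peptide uptake 1 and 0 of 14, ABC transporters 1 and 0 of 11, and sugar transporters 0 and 1 of 15. Heat shock genes, cytochrome P450 genes and histones, 25, 11 and 9 past the filter, held 0 past the size rule. The 1 lower of 3 heterokaryon incompatibility genes was pin-c, at 2.32 and 0.318, which passed the filter only through its standard value. With a pseudocount of 5 the calls in these lists came to 2 higher major facilitator genes, 1 higher uptake gene and 1 lower protease gene. In all, 149 of the 212 higher and 139 of the 165 lower genes were in none of the lists.

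The lowest ratios of all belonged to genes annotated as hypothetical proteins. NCU10610 read FPKM 52.6 in standard, 3.75 in 0 Ca2+ and 39.5 in 20 mM medium (-3.50). NCU09712 read 38.4, 3.18 and 35.02 (-3.24), NCU00992 12.8, 0.643 and 7.99 (-3.07), NCU04496 31.8, 3.17 and 39.5 (-2.98), and NCU05712 47.0, 5.33 and 98.9 (-2.92). In all 5 the 0 Ca2+ library was the lowest DMSO library, and the 20 mM library was nearer to the standard one or above it. NCU00992 passed the level filter only through its standard value, so it could not have been called higher.

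Several lower genes lie side by side. By the order of protein-coding genes in the RefSeq assembly NC12, used for neighbourhood only since the build of the table is not given in the sources used here, 27 of the 154 lower genes that could be placed fell into 9 runs of adjacent lower genes. Of the 192 higher genes placed, 20 fell into 10 runs, each of 2 genes. Lower and higher genes made up 2.33% and 2.99% of all genes, and how many runs such shares give by position alone was not computed. The longest run was 7 lower genes, from NCU05132 to NCU05138. It holds ncw-1, the UDP-glucose 4-epimerase gene NCU05133 (FPKM 12.8 and 2.44), NCU05136, annotated as an endo alpha-1,4 polygalactosaminidase (43.0 and 16.3), and 4 hypothetical genes, with log2 ratios between -1.07 and -2.85. NCU05131, beyond its end, was below the level filter at 0.180 and 0.0346. The runs were not recomputed with a pseudocount of 5, which shrinks the ratios of low genes most. In the longest run NCU05132 (6.95 and 1.88), NCU05134 (6.89 and 1.58) and NCU05135 (3.57 and 1.18) were at low levels. In NC12 ncw-1 overlaps NCU05138, and since the strand setting of the counting is not stated, reads of these 2 cannot be told apart; the same holds for pho-4 and NCU12035 (4.78 and 20.6).

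A second run of 4 lower genes joins mek-1 to the thymine salvage genes NCU06416, for thymine dioxygenase (FPKM 12.6 in standard, 3.14 in 0 Ca2+ and 48.8 in 20 mM medium), and NCU06417, for uracil-5-carboxylate decarboxylase (22.0, 7.31 and 43.2), with the helicase gene NCU06418 between (30.1, 14.3 and 21.9). The third, NCU09953 to NCU09956, is 4 hypothetical genes at FPKM of 2.30 to 5.26 in standard and 0.203 to 0.924 in 0 Ca2+ medium. All 4 passed the level filter only through their standard values, so they could not have been called higher. Among the higher pairs, ena-1 adjoins NCU05045, scon-2 adjoins the succinate/fumarate carrier gene NCU08561 (3.94 and 14.2), and NCU07966 adjoins the hypothetical gene NCU07967 (10.6 and 24.2).

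The same change of medium was also made in 2 other libraries, those with staurosporine, which share no library with the DMSO pair. There the differences between the media were more numerous: of the same 7079 genes 15.4% were at least 2 times higher in 0 Ca2+ medium and 18.8% lower. Across genes, which are not independent replicates, the log2 ratios of the 2 pairs had a Pearson r of 0.15 and a Spearman rho of 0.14 (n = 7079 genes); the pairs differ in drug, and FPKM sums were 500315 and 696047 in the staurosporine libraries against 940590 and 953522 in the DMSO ones. Of the 212 genes higher with DMSO, 96 (45.3%) were also at least 2 times higher with staurosporine and 25 (11.8%) lower. Of the 165 lower genes 31 (18.8%) were also lower, the same share as among all genes, and 36 (21.8%) were higher.

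With staurosporine 11 of the 22 sulfur acquisition genes were at least 2 times higher in 0 Ca2+ medium and 0 lower, and of the 14 phosphate genes 6 were higher and 3 lower. Other lists did not repeat: of the 15 mitochondrial chromosome IDs 3 were higher and 5 lower, with a median of -0.61 against 0.88 with DMSO. Of the 16 genes of sulfur amino acid synthesis 0 were higher and 5 lower (median -0.28 against 0.34), and cell fusion had a median of 0.06 against -0.58. There NCU01057 read FPKM 0.757 in standard and 20.8 in 0 Ca2+ medium, NCU07610 0.920 and 28.5, and cys-14 8.62 and 22.7, while NCU04942 read 12.03 and 13.4. For phosphate pho-5 read 2.89 and 20.7, pho-4 45.3 and 154, and NCU10038 4.37 and 120, with pho-4 at 3.35 in the 20 mM staurosporine library. The wall protein genes ncw-3 (9.28 and 79.0) and NCU00399 (6.53 and 65.6) were again higher. On the lower side cax read 37.9 and 4.87, nca-2 103 and 4.03, mek-1 234 and 52.6, and eas 39.4 and 7.95, each at least 2 times lower in both pairs. Neither higher gene of the calcium transport list was higher in that pair. There ena-1 read 152 and 121 (-0.33), and NCU07966 read 34.2 and 30.2 (-0.18). The ratios of acw-10 (-0.91), NCU07523 (-0.76) and mak-1 (-0.50) in that pair missed the size rule. So did those of ncw-1 (-0.24), NCU04122 (0.28) and tzn-1 (-0.44), and that of Prm1 was 1.37. Some lower genes were at low levels in that pair. NCU10610, NCU09712 and NCU05712 read 2.02, 0.817 and 0.231 in standard medium with staurosporine. In 0 Ca2+ medium with staurosporine they read 4.52, 1.15 and 0.237, so none of these was lower there. Such levels leave little room for a lower call on the FPKM + 1 scale, and what part this has in the set was not tested.

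**Figure D5:**
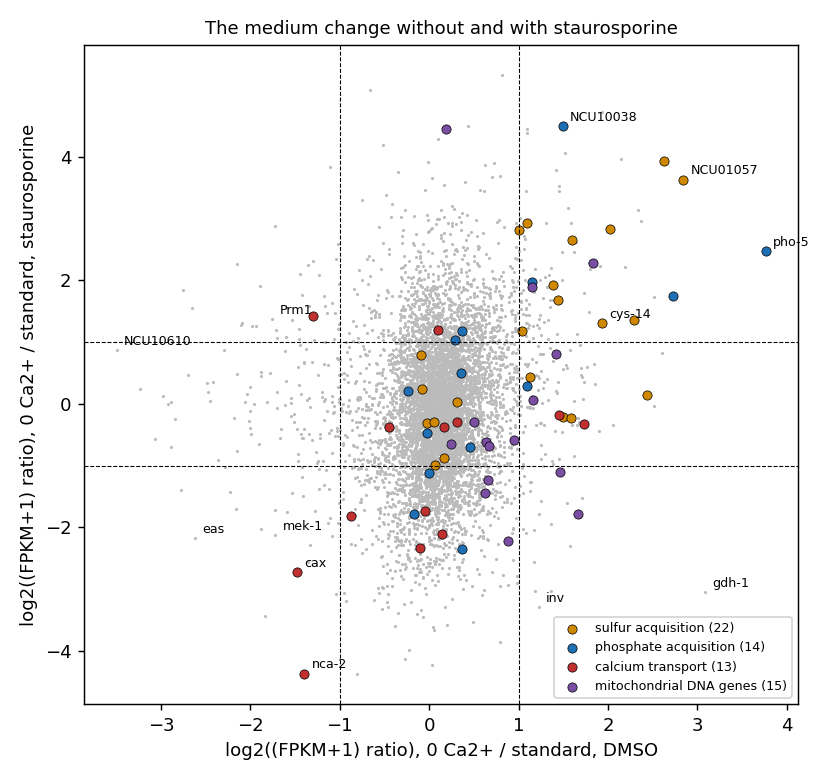
Log2 ratio of FPKM + 1 in 0 Ca2+ over standard medium with staurosporine against that with DMSO, 1 point per gene for 7079 genes, with 4 gene lists in colour and dashed lines at 1 either way. Many sulfur genes, NCU01057 among them, and some phosphate genes, such as pho-5, lie in the upper right. In the lower left stand cax and nca-2, and in the lower right gdh-1, at 3.08 and -3.05.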

How the data were processed

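Poly(A) RNA of 6 cultures was selected with oligo(dT) beads, per the labels' protocols, and sequenced as single reads, per the series' design text. The submitters' processing notes name TopHat2 2.0.4, Cufflinks 2.0.2 and Cuffdiff. Which genome build and strand setting were used is not given in the sources used here. Deposited tables hold the authors' FPKM per gene and library, per the file headers, written with decimal commas. Values of a library that recurs in several tables were identical (0 of 9691 genes differed). The authors' own ratios, p-values and calls were not used. No read counts are given and the depth is unknown, so no counting interval is given; the commonest ratio of low values of the 0 Ca2+ to the standard DMSO library, 0.804 in 14 of 1000 genes, is too rare to fix a relative depth.

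Computed here were log2((FPKM + 1) ratio), the level filter (mean FPKM of at least 1), the size rule (2 times) and medians and counts over 37 lists set by symbol, product or ID. The ratio and count steps were checked on simulated data. The members and lists were chosen with earlier results of these data known. Genes named are the 12 highest and 12 lowest with a symbol or informative product, the 5 at each end of all genes and by FPKM difference, all calcium genes, and up to 4 per list with the largest ratio; further members of a list are named to show its spread, after their values were seen. Symbols, neighbours and lengths were looked up in RefSeq's gene table for NC12 (9141 IDs matched by locus tag; 66 IDs join 2 or more loci). A description of promoter motifs was planned and not run, since no promoter sequence was used here. Other settings tried were a pseudocount of 0.1 or 5, a minimum of 10 or none, centring, rescaling to a sum of 1000000, leaving out genes listed at 0, IDs of several loci or, added after the data were seen, the mitochondrial chromosome, and removal of the trend with gene length (running median of 301 genes). The software was matplotlib 3.10.9, scipy 1.17.1, numpy 2.4.6 and pandas 2.3.3 under Python 3.11.15.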

Additional observations from a re-analysis of the deposited data

Results flagged for a closer look

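For 15 named genes the ratio of 0 Ca2+ over standard medium had opposite signs with DMSO and with staurosporine, at least 2 times apart in each pair. With 1 library a group, these differences between the pairs were not tested. Higher in 0 Ca2+ medium with DMSO and lower with staurosporine were gdh-1 (log2 ratios of 3.08 with DMSO and -3.05 with staurosporine), NCU16023 (1.67 and -1.79), NCU16022 (1.47 and -1.11), ccg-8 (1.37 and -1.95), wc-1 (1.25 and -1.58), acon-2 (1.23 and -1.78), NCU00223 (1.18 and -2.55), NCU06132 (1.13 and -1.42) and cys-2 (1.05 and -1.44). For gdh-1 the FPKM was 11.001 and 101 with DMSO and 69.95 and 7.59 with staurosporine, so the drug's standard library stood near the DMSO library without calcium.

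Lower with DMSO and higher with staurosporine were Prm1 (-1.76 and 1.37), NCU06416 (-1.72 and 1.20), NCU11680 (-1.30 and 1.43), NCU09909 (-1.29 and 1.04), tca-17 (-1.18 and 1.75) and NCU11314 (-1.02 and 1.22). Prm1 read FPKM 45.7 and 12.8 with DMSO and 4.24 and 12.6 with staurosporine, so the 2 libraries in 0 Ca2+ medium were alike in level and the standard ones were not.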

How the results depend on the processing

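The pseudocount and the level filter set the size of the counts. With a pseudocount of 0.1, 325 genes were at least 2 times higher, among them all 212, and 202 lower, among them all 165. With a pseudocount of 5 the counts were 82 and 89, all of them among the genes reported. A larger pseudocount shrinks every ratio, so these overlaps follow from the arithmetic. With a mean FPKM of at least 10 they were 121 and 90. The other alternatives gave between 162 and 223 higher and between 150 and 189 lower genes. No direction was reversed for a named gene past the size rule under any alternative run, but these runs could hardly have reversed one. Pseudocounts and filters keep the sign of a ratio, and centring shifted the log2 ratios by only 0.09. Of the 80 named genes past it, a pseudocount of 5 left out 31 and centring 4. The median of sulfur acquisition ran from 0.68 to 1.68, of the mitochondrial chromosome from 0.67 to 0.95, of complex I from -0.42 to -0.30 and of cell fusion from -0.67 to -0.47. Centring turned the sign of 5 medians near 0: calcium signalling, amino acid and peptide uptake, mitochondrial ribosomal proteins, complexes III to V, and heat shock. A mean FPKM of at least 10 turned 5: plant cell wall degradation (0.13 to -0.34), cytochrome P450 (0.12 to -0.29), calcium signalling, amino acid and peptide uptake, and sugar transport. Leaving out the filter turned cell wall and sugar transport, and removing the length trend turned calcium transport and cytosolic ribosomal proteins. No replicate could be left out and no replicate block fitted, since each group has 1 library. A fit that adds medium and drug over all 6 libraries would take the drug to leave the effect of medium as it is, and was not run. Read depth is not known, so the counting error of low values, such as those of ars-1, pho-2 and NCU02196, cannot be given.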
